A study of Mus musculus with 4 samples.

Results

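Neural crest specifiers are the transcription factors and the receptor gene that mark the border of the neural plate and the crest cells that leave it. Sox10, Foxd3, Tfap2a, Tfap2b, Snai2, Twist1, Pax3, Pax7, Ets1 and Ngfr were taken by gene symbol from the deposited table, which held all 10 of them among its 55426 rows. They were followed in poly(A) RNA of mouse retinal organoids at day 6, aggregates of stem cells guided in culture towards retinal progenitors. All 4 libraries came from the Rx:GFP Mettl3 KO line, which also carries a doxycycline-inducible, HA-tagged METTL3, the enzyme that places N6-methyladenosine (m6A) on mRNA, and all were grown in a serum-replacement medium with a compound labelled AGN. The 2 untreated libraries had no doxycycline (Dox), and the 2 Dox libraries had 2 µg/ml over 6 days. The titles add the letters EV to every library without explaining them, and no label says how many clones of the line were used.

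The neural crest arises where the neural plate meets the surface ectoderm, under Wnt, BMP and FGF signals. Border genes such as Pax3, Pax7, Tfap2a and Tfap2b come first, Foxd3, Snai2, Ets1 and Sox10 then mark crest cells, and Twist1 marks crest mesenchyme. Crest does not arise from the most anterior neural plate, which gives the eye field. Crest cells enter the eye region from neighbouring tissue. Several of these genes are also used elsewhere: Pax3 and Pax7 in the dorsal neural tube, Tfap2a and Tfap2b in surface ectoderm and in some retinal neurons, Ets1 in endothelium, and Ngfr in neurons.

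Values are FPKM, fragments corrected for transcript length and sequencing depth, so levels can be compared between genes. Low values move in steps of 1 fragment, and these steps gave a depth of 31900000 to 34700000 fragments per library. Pearson's r of log2(FPKM + 1) over the 13931 genes that averaged 1 FPKM or more was 0.990 between untreated replicates and 0.987 between Dox replicates, and at most 0.966 between groups. Mettl3 itself was listed at 40.33 and 37.98 FPKM without Dox and at 45.2 and 46.37 FPKM with Dox, a difference that did not pass the threshold (log2 fold change 0.22, adjusted p = 0.122 in limma). Gene-level values do not separate the inducible copy from the knocked-out locus. The tissue label was checked against 12 retinal progenitor genes. In the untreated libraries Rax, which defines the eye field, stood at 1.12 and 0.82 FPKM, and Six6 was listed at 0.01 FPKM in each. With Dox, Rax stood at 201.14 and 227.98 FPKM and Six6 at 79.22 and 92.44 FPKM, a gap that not all genes of the list shared. In the untreated libraries Lhx2 stood at 26.72 and 24.3 FPKM, Mab21l2 at 12.46 and 11.49 FPKM, Six3 at 7.7 and 7.05 FPKM and Mab21l1 at 4.21 and 3.63 FPKM, all lower than with Dox. Pax6, which is also expressed in other forebrain progenitors, stood between 118.86 and 130.69 FPKM in the 4 libraries. These 5 were picked with their values in view. Nothing in the labels says that replicates came from separate cultures, so the p-values measure the spread between these libraries, which may be technical.

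The crest specifiers split by gene. Sox10, Tfap2b, Pax3, Foxd3, Ngfr and Ets1 fell with Dox, by 2.90-fold to 20.9-fold in mean FPKM. Tfap2a and Pax7 did not pass the test, and Snai2 and Twist1 were higher in each Dox library without passing it. Called means an adjusted p below 0.05 in limma on log2(FPKM + 1), two-sided and adjusted over all 13931 tested genes. By that rule 6 of the 10 genes were lower and 0 were higher, where 9.31% of all tested genes were called, 4.87% lower and 4.44% higher. Before adjustment, p was below 0.05 for these 6 and for 2 genes that were higher. All 10 passed the filter of a mean of 1 FPKM, but Sox10, Tfap2b, Pax3, Foxd3 and Ngfr passed it only through the untreated libraries, so that filter favours a difference for these 5. Without the filter, with 27532 genes tested, the same 5 were called and Ets1 was not. In bulk RNA, fewer cells of a type and less RNA per cell cannot be told apart.

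**Figure D1:**
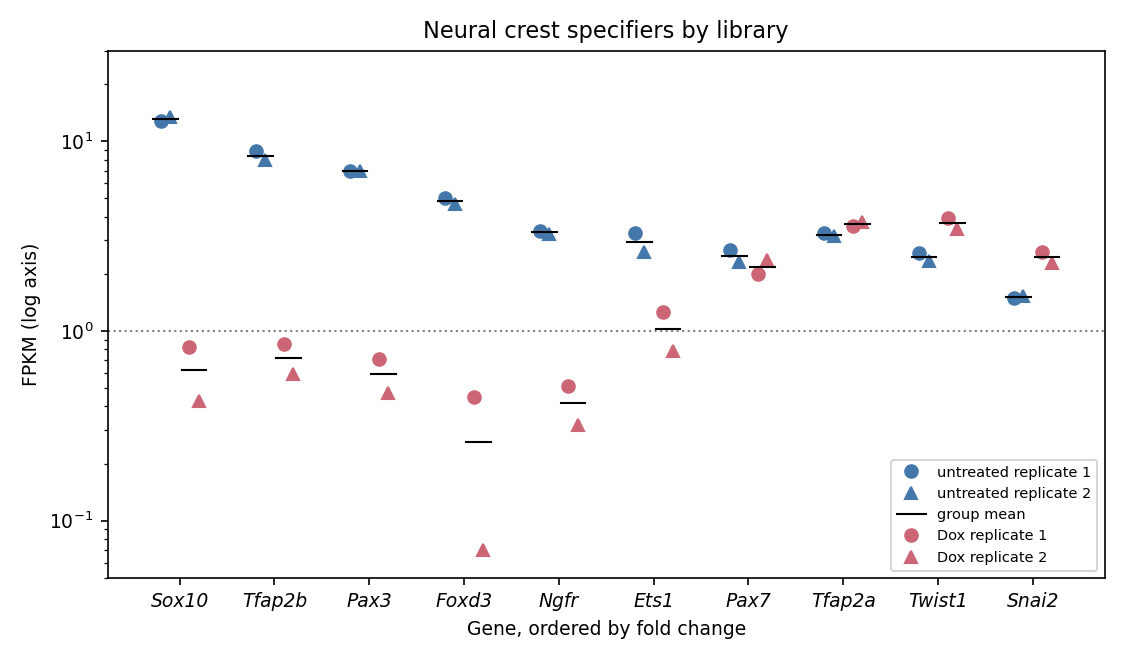
FPKM of each crest specifier (y axis, logarithmic) in the 4 libraries; blue marks are untreated and red marks Dox, circles replicate 1 and triangles replicate 2, short lines are group means, and the dotted line is 1 FPKM. From Sox10 to Ets1 the red marks lie below the blue ones, Pax7 overlaps, and Tfap2a, Twist1 and Snai2 lie slightly higher with Dox.

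Sox10 encodes an SRY-box factor that keeps crest cells multipotent and later directs their glial and pigment fates. The gene lies at chr15:79154908-79165240 on the minus strand (GENCODE M21, GRCm38). Sox10 was listed at 12.79 and 13.35 FPKM without Dox and at 0.82 and 0.43 FPKM with Dox. It was the most abundant of the 10 genes in the untreated libraries, and the Dox libraries lay far below them. The means were 13.1 ± 0.396 and 0.625 ± 0.276 FPKM (SD, n = 2 each), 20.9-fold lower with Dox, which is -3.12 ± 0.148 as a log2 fold change with its SE (limma adjusted p = 2.69e-04). On the log2(FPKM + 1) scale, which understates changes of low genes, this was the steepest fall of the 10.

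Foxd3 encodes a forkhead repressor that acts in premigratory crest and also in pluripotent cells. It is a single-exon gene with 1 annotated transcript of 2324 nt at chr4:99656299-99658622 on the plus strand. Foxd3 was listed at 5 and 4.66 FPKM without Dox, and at 0.45 and 0.07 FPKM with Dox. At the fitted depths these correspond to about 335 and 338 fragments without Dox, and to about 30 and 5 with Dox. The groups did not overlap, and the Dox replicates differed 6.43-fold from each other, the widest replicate gap among the 10 genes. The log2 fold change was -2.23 (SE 0.181), with an adjusted p of 0.00162 in limma, from means of 4.83 ± 0.240 and 0.26 ± 0.269 FPKM (SD, n = 2 each). A microRNA gene annotated on the same strand shares 89 bases of the Foxd3 exon and was listed at 0 in each library.

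Tfap2b and Tfap2a encode closely related AP-2 factors of the plate border, and they differed in these libraries. Tfap2b, at chr1:19208914-19238576 on the plus strand, was listed at 8.84 and 7.96 FPKM without Dox and at 0.85 and 0.59 FPKM with Dox. It was second in abundance to Sox10 among the untreated values, and it fell 11.7-fold in mean FPKM, and its log2 fold change was -2.45 (SE 0.133), with an adjusted p of 4.15e-04 in limma. Tfap2a, at chr13:40715302-40738376 on the minus strand, was listed at 3.28 and 3.17 FPKM without Dox and at 3.57 and 3.76 FPKM with Dox. Its libraries did not overlap, but the gap was small, with a log2 fold change of 0.14, a 95% interval of -0.13 to 0.41 and an adjusted p of 0.490 in limma. The ratio of Tfap2b to Tfap2a in FPKM was 2.70 and 2.51 in the untreated libraries and 0.238 and 0.157 in the Dox libraries. Tfap2b was thus the more abundant of the pair in each untreated library and the less abundant in each Dox library. The change of this ratio was -3.75 on the log2 scale (exact two-sided permutation p = 0.33, the smallest that 2 libraries against 2 allow). Exons of Tfap2a overlap 3 antisense genes on the opposite strand, each at or below 0.11 FPKM in each library.

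The promoter table from RefSeq (GRCm38.p6) had entries for 6 of the 10 genes, Foxd3, Tfap2a, Tfap2b, Pax7, Ngfr and Twist1, and none for Sox10, Pax3, Ets1 and Snai2. The 250 bases before the start site are shown for Foxd3 and Tfap2b, which fell together, and for Twist1, which did not fall, because these 3 windows hold no annotated exon. Capitals mark CG dinucleotides. Foxd3 is chr4:99656049-99656298 on the plus strand, Tfap2b is chr1:19211804-19212053 on the plus strand, and Twist1 is chr12:33957421-33957670 on the plus strand.
Foxd3: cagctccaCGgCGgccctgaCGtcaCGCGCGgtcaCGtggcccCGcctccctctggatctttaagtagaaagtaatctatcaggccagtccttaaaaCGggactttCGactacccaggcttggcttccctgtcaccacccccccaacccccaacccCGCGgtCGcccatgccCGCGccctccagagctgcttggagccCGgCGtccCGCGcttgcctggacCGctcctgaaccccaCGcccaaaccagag
Tfap2b: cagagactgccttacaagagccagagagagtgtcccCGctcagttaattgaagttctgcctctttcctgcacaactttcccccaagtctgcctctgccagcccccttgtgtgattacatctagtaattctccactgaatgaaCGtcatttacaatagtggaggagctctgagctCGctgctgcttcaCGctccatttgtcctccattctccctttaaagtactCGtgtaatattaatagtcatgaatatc
Twist1: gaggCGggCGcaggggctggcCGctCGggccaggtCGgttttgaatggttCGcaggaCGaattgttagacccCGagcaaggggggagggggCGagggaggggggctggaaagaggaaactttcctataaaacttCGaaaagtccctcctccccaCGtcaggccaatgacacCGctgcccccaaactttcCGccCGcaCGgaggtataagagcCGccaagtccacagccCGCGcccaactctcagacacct
The Tfap2b window lies inside the annotated span of the gene, before a start site at 19212054. Of the genes that fell, Foxd3 and Tfap2b differed in base composition in these windows. Foxd3 had 65.6% G and C and 21 CG dinucleotides, Tfap2b 46.4% and 5, and Twist1 62.4% and 18, where the median over all 32851 promoter windows was 52.4% and 6. Ngfr, which also fell, had 70.4% and 16, in a window with 37 exon bases. Both strands were searched for an AP-2 motif (GCCNNNGGC), an E-box (CACCTG), a TCF motif (CTTTGA), SOX motifs (ACAAAG and ATTGTT) and TATAAA. None of these motifs contains another. Of the 7 windows of crest specifiers only that of Twist1 held a match, ATTGTT at -190 to -185 and TATAAA at -126 to -121 from the start site. ATTGTT is found in 9.42% and TATAAA in 12.4% of all windows, and the other 4 motifs in 13.7% (AP-2), 17.2% (E-box), 13.8% (TCF) and 16.5% (ACAAAG). The windows of Foxd3 and Tfap2b held none of these letter runs, and neither did the windows of Ngfr, Pax7 and Tfap2a, which has 2 entries.

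Pax3 and Pax7 are paired-box factors that overlap in the dorsal neural tube and in crest. Pax3, at chr1:78101267-78197134 on the minus strand, was listed at 6.97 and 6.99 FPKM without Dox and at 0.71 and 0.47 FPKM with Dox. The untreated replicates were nearly equal, and the fall was 11.8-fold in mean FPKM, and limma gave -2.33 on the log2 scale (SE 0.130) at an adjusted p of 4.56e-04. Pax7, at chr4:139737062-139833528 on the minus strand, was listed at 2.66 and 2.32 FPKM without Dox and at 1.99 and 2.38 FPKM with Dox. It was the only one of the 10 genes whose groups overlapped, with a log2 fold change of -0.13, a 95% interval of -0.47 to 0.20 and an adjusted p of 0.605 in limma. The ratio of Pax3 to Pax7 in FPKM was 2.62 and 3.01 in the untreated libraries and 0.357 and 0.197 in the Dox libraries. Like the AP-2 pair, the order of the paired-box genes was opposite between the groups, with a log2 change of the ratio of -3.40 (exact two-sided permutation p = 0.33). Untreated and Dox libraries were fully separated for 53.4% of all tested genes, and for 9 of these 10.

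Ngfr and Ets1 fell less. Ngfr encodes the low-affinity neurotrophin receptor p75, a surface marker used to isolate crest cells, and lies at chr11:95568818-95587735 on the minus strand. Ngfr was listed at 3.38 and 3.23 FPKM without Dox and at 0.51 and 0.32 FPKM with Dox, about 348 and 360 fragments against 52 and 34. It was 7.96-fold lower in mean FPKM with Dox, and limma gave -1.61 on the log2 scale (SE 0.138) at an adjusted p of 0.00196. Ets1 encodes an ETS-domain factor of cranial crest and endothelium and lies at chr9:32636221-32757820 on the plus strand. Ets1 was listed at 3.3 and 2.62 FPKM without Dox and at 1.26 and 0.78 FPKM with Dox. It kept the highest Dox level of the 6 genes that fell, at a mean of 1.02 ± 0.339 FPKM (SD, n = 2), 2.90-fold below the untreated mean. Limma gave -0.98 on the log2 scale (SE 0.175) at an adjusted p of 0.0267. This call was the least secure of the 6. Leaving out 1 library at a time gave adjusted p-values of 0.117 without untreated replicate 1, 0.062 without untreated replicate 2, 0.06 without Dox replicate 1 and 0.124 without Dox replicate 2, and the test without the filter gave 0.128. The other 5 genes that fell remained called in each of these fits.

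**Figure D2:**
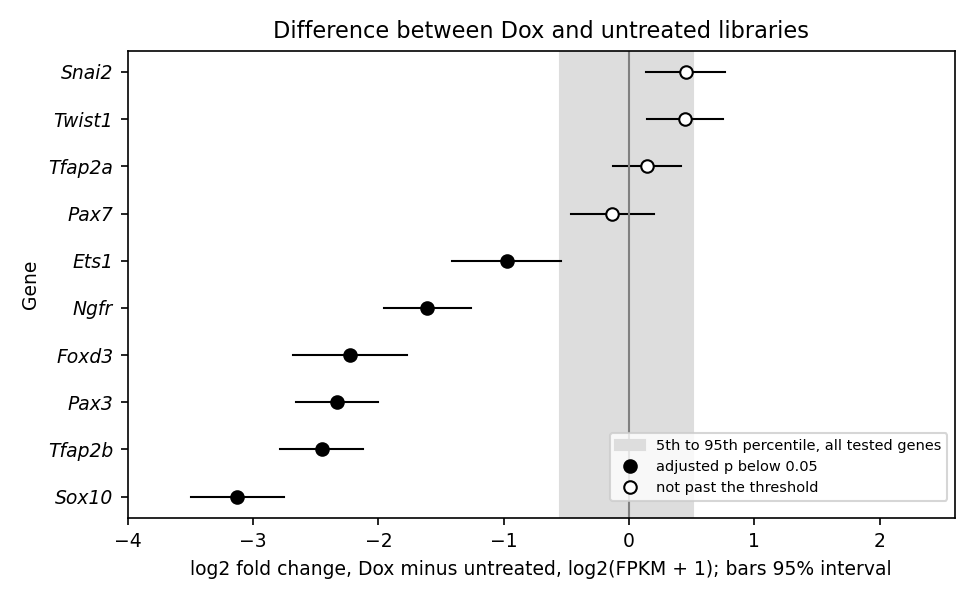
Log2 fold change of each crest specifier on the log2(FPKM + 1) scale (x axis, Dox minus untreated) with its 95% interval from limma; filled points passed an adjusted p of 0.05 and the grey band spans the 5th to 95th percentile of all tested genes, -0.55 to 0.51. Sox10, Tfap2b, Pax3, Foxd3, Ngfr and Ets1 lie left of the band, and the other 4 points lie inside it.

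Snai2 and Twist1 leaned the other way. Snai2 encodes the zinc finger repressor Slug, which represses cadherin genes, and lies at chr16:14705852-14709385 on the plus strand. Snai2 was listed at 1.5 and 1.53 FPKM without Dox and at 2.62 and 2.27 FPKM with Dox, about 86 and 95 fragments against 149 and 132. The libraries did not overlap, and the log2 fold change of 0.45 (95% interval 0.14 to 0.77) had an unadjusted p of 0.0134 and an adjusted p of 0.0966 in limma. Of the other settings, only the fit without the intensity trend called it (adjusted p = 0.0468 in limma), and over all of them the adjusted p ranged up to 0.274. Twist1 encodes a bHLH factor of crest and head mesenchyme and lies at chr12:33957671-33959829 on the plus strand. Twist1 was listed at 2.57 and 2.34 FPKM without Dox and at 3.95 and 3.46 FPKM with Dox, about 115 and 113 fragments against 175 and 157. Its log2 fold change was 0.44 (95% interval 0.14 to 0.75, adjusted p = 0.0914 in limma).

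The order of levels differed between the groups. In the untreated libraries Sox10, Tfap2b, Pax3 and Foxd3 came first, in that order, with no overlap between neighbours. Ngfr, Tfap2a and Ets1 followed with overlapping values between 2.62 and 3.38 FPKM. Pax7 and Twist1 also overlapped each other, and Snai2 was lowest. In the Dox libraries Twist1 and Tfap2a were highest with overlapping values, Snai2 and Pax7 came next and overlapped too, and Ets1 followed. Tfap2b, Sox10, Pax3, Ngfr and Foxd3 lay at or below 0.85 FPKM. Summed over the 10 genes, the untreated libraries held 50.29 and 48.17 FPKM and the Dox libraries 16.73 and 14.53 FPKM.

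The 6 genes that fell shared a further pattern within the Dox group. Dox replicate 2 lay below Dox replicate 1 for each of them, by 1.44-fold for Tfap2b, 1.51-fold for Pax3, 1.59-fold for Ngfr, 1.62-fold for Ets1, 1.91-fold for Sox10 and 6.43-fold for Foxd3. Snai2 and Twist1 were also lower in Dox replicate 2, by 1.15-fold and 1.14-fold, while Pax7 and Tfap2a were higher there. Over all tested genes Dox replicate 1 was the higher of the pair for 44% of genes, with a median log2 ratio of -0.03. Rax was higher in Dox replicate 2. The part of the library itself in this gap was not tested.

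**Figure D3:**
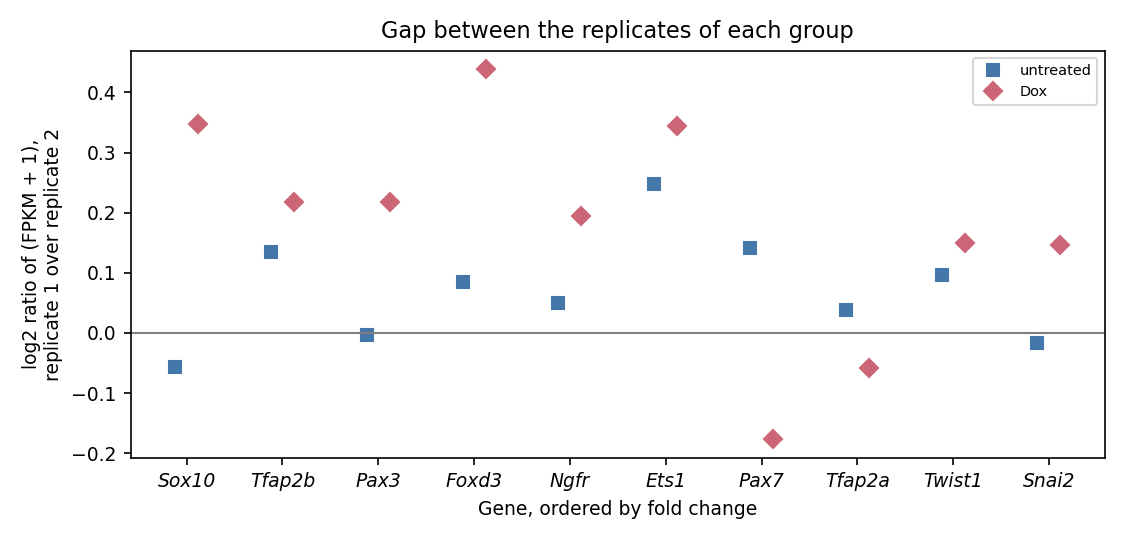
Log2 ratio of (FPKM + 1) of replicate 1 over replicate 2 (y axis) for each crest specifier, with untreated as blue squares and Dox as red diamonds. The 6 genes that fell have Dox ratios between 0.19 and 0.44, all above 0.

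The study concerns m6A, so the mRNAs were searched for GGACT, a core form of the m6A consensus, a search chosen after the values were seen. In the longest annotated coding transcript Ets1 held 10 copies (1.97 per kb), Pax7 9 (1.54 per kb), Ngfr, Pax3 and Tfap2b 4 each (1.16, 1.04 and 0.682 per kb), Tfap2a 3 (0.86 per kb), Twist1, Foxd3 and Sox10 2 each (1.23, 0.861 and 0.719 per kb) and Snai2 0. Over 11629 tested coding genes the median was 1.05 per kb, with quartiles of 0.635 and 1.51. Of the 6 genes that fell, Ets1 and Ngfr lay above that median, and Pax3, Foxd3, Sox10 and Tfap2b below it. A match is a letter run and no measured site of methylation.

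Genes that act around the specifiers were counted by list, with lists written with earlier results of these data known. As with the specifiers, some listed genes passed the filter only through the group where they were higher, which favours a difference. Counts without the filter are therefore given for the lists of signals, border, migration, crest derivative, and dorsal midbrain and hindbrain genes. The list headed crest-inducing signals comprises Wnt, BMP, FGF and R-spondin ligands. Whether each of them induces crest was not tested, so its count is no measure of crest induction. Of the 13 tested of 17, 11 fell and 2 rose, with a median log2 fold change of -2.02, where the median over all tested genes was -0.0042. Wnt1, Bmp2, Bmp5, Bmp6 and Gdf7, 5 of the 11, averaged below 1 FPKM with Dox and are named for that reason. With no filter all 17 were tested, and 10 fell and 1 rose. Wnt8b, a forebrain Wnt ligand, stood at 87.09 and 85.29 FPKM without Dox and at 4.07 and 5.57 FPKM with Dox. Rspo2, an R-spondin that amplifies Wnt signalling, and the ligand Wnt7b fell with log2 fold changes of -3.62 and -3.59. Bmp4 rose, from 6.87 and 3.42 to 95.05 and 79.29 FPKM, which limma put at 3.90 on the log2 scale (adjusted p = 9.36e-04). The other gene that rose was Fgf8, named after its values were seen, from 3.16 and 2.99 to 6.06 and 5.92 FPKM. Wnt1, a dorsal neural tube ligand used to label crest lineages and named here after its values were seen, fell from 9.42 and 8.77 to 1.01 and 0.95 FPKM.

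Other neural plate border genes went both ways. Of 9 tested of 16, 4 rose and 3 fell, with a median log2 fold change of 0.28, and with no filter 3 of 16 rose and 2 fell. Zic1, a zinc finger factor that acts with Pax3 at the border, fell from 70.99 and 66.83 to 3.13 and 3.37 FPKM. Tfap2c, another AP-2 gene, stood at 12.09 and 12.14 FPKM without Dox and at 2.61 and 3.18 FPKM with Dox, or -1.76 on the log2 scale (limma adjusted p = 7.21e-04). Msx2, a BMP-responsive homeobox gene, rose with a log2 fold change of 2.20. Leaving out 1 library moved this count by more than 1.5 times: 2 rose and 2 fell without untreated replicate 1, without untreated replicate 2 or without Dox replicate 2.

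Genes of crest delamination and migration also went both ways. Of 16 tested of 18, 7 rose and 4 fell, with a median log2 fold change of 0.23, and with no filter 6 of 18 rose and 3 fell. The largest changes were increases of Cdh11, a cadherin of mesenchyme that is also made in the optic vesicle, from 22.79 and 23.13 to 184.41 and 211.3 FPKM, and of Myc, Id2 and Cdh6, with log2 fold changes of 2.18, 2.14 and 2.05. Among the 4 that fell were receptor genes of crest cells. Ednrb, the endothelin receptor of crest, stood at 5.71 and 5.72 FPKM without Dox and at 0.8 and 0.67 FPKM with Dox (log2 fold change -1.95, adjusted p = 6.10e-04 in limma). Erbb3, the neuregulin receptor of crest glia, stood at 2.63 and 2.56 FPKM without Dox and at 0.72 FPKM in each Dox library (log2 fold change -1.06, adjusted p = 0.00571 in limma). Sox8 and Sox9, SoxE relatives of Sox10 that are also expressed in crest, went the other way. Sox8 rose from 0.24 and 0.2 to 2.95 and 3.63 FPKM (limma adjusted p = 0.00151), and Sox9 from 5.76 and 5.13 to 9.65 and 12.11 FPKM (limma adjusted p = 0.015). Ednrb, Erbb3, Sox8 and Sox9 are named after their values were seen. Ednrb and Erbb3 passed the filter only through the untreated libraries, and Sox8 only through the Dox libraries. That filter favours a difference for Ednrb, Erbb3 and Sox8, so their adjusted p-values are no independent support.

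Genes of crest derivatives gave mixed counts. For crest ectomesenchyme, 5 of 16 genes were tested, of which Prrx2 (9.82 and 9.8 to 52.32 and 57.65 FPKM) and Pdgfra (1 and 1.2 to 2.82 and 2.74 FPKM) rose and 0 fell. With no filter 1 of 16 rose and 1 fell, and only 1 call was shared with the main test. The Pdgfra call was lost without untreated replicate 1, without Dox replicate 1 or without Dox replicate 2, which left 1 gene called. For crest neurons, glia and pigment, 4 of 7 tested genes rose and 3 fell, of 17 listed, and with no filter 3 of 17 rose and 2 fell. Pmel (1.2 in each untreated library, 39.27 and 39.93 FPKM with Dox), Dct and Mitf rose, with log2 fold changes of 4.21, 3.09 and 2.82. These are melanosome genes that crest melanocytes share with the retinal pigment epithelium, which is not a crest derivative. Kit, a receptor gene of crest melanocytes named after its values were seen, rose from 4.26 and 3.71 to 7.84 and 8.41 FPKM. Pou4f1, a sensory neuron factor, fell from 9.64 and 9.27 to 1.3 and 1.06 FPKM. The glial gene S100b was at or below 0.02 FPKM in each library.

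Other tissues that use these genes were read from their markers. Of the 10 endothelial markers 9 stayed below 1 FPKM in each library, among them Pecam1 and Cdh5, and were under the filter. At these low levels Cdh5 stood at 0.05 and 0.01 FPKM without Dox and at 0.43 and 0.61 FPKM with Dox. Tek, Erg, Fli1 and Sox17 were also higher in each Dox library, Esam was lower, and Pecam1, Tie1 and Emcn overlapped. The list summed to 1.95 and 1.89 FPKM without Dox and to 16.87 and 21.02 FPKM with Dox. Most of the Dox sum was Kdr, a VEGF receptor gene that retinal progenitors also express, which rose from 0.22 and 0.25 to 13.91 and 17.63 FPKM while Ets1 fell. Of 12 mesoderm and somite markers 11 stayed below 1 FPKM, and the list summed to 10.21 and 9.05 FPKM without Dox and to 3.49 and 3.36 FPKM with Dox. Its 1 tested gene was Foxd1, which is better known from the forebrain and temporal retina and fell from 8.06 and 6.77 to 1.12 and 1.31 FPKM. The muscle progenitor genes Myf5 and Myod1, partners of Pax3 and Pax7 in somites, did not exceed 0.06 FPKM.

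Surface ectoderm and placode markers, where Tfap2a and Tfap2b are also expressed, showed no call. Of 12 genes 7 were tested and 0 passed in limma, where an unadjusted p below 0.05 was reached by 2 that were higher and 1 that was lower. The other fits called 0 to 2 of them. The list summed to 74.67 and 67.4 FPKM without Dox and to 82.92 and 75.27 FPKM with Dox. The epidermal genes Trp63, Krt5 and Krt14 were at or below 0.02 FPKM in each library, Krt14 at 0. Of the 13 dorsal midbrain and hindbrain genes 4 were tested, of which 3 fell and 1 rose. Each of these 4 passed the filter only through the group where it was higher, which favours a difference. With no filter 12 were tested, of which 2 rose and 3 fell. Dmbx1 (7.97 and 7.09 to 0.38 and 0.48 FPKM) and Lmx1a (5.36 in each untreated library, 0.49 and 0.68 FPKM with Dox), genes of the dorsal midbrain and the roof plate, fell, and so did Tal2. Pax2, a gene of the midbrain-hindbrain boundary and also of the optic stalk, rose from 0.22 and 0.2 to 20.56 and 30.37 FPKM. The boundary gene En1 was at or below 0.11 FPKM and En2 at or below 0.12 FPKM. This list summed to 17.24 and 16.17 FPKM without Dox and to 23.47 and 33.61 FPKM with Dox. Most of that Dox sum was Pax2. The part of other tissues in the fall of the crest specifiers was not tested.

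Retinal progenitor genes moved opposite to the crest specifiers that fell. Of 12 tested genes 11 rose and 0 fell, with a median log2 fold change of 4.21, and the sum of the list went from 180.36 and 166.77 to 1110.64 and 1303.73 FPKM. Tbx2 and Hmx1, factors of the optic vesicle, rose with log2 fold changes of 5.89 and 5.43, next to Rax and Six6.

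**Figure D4:**
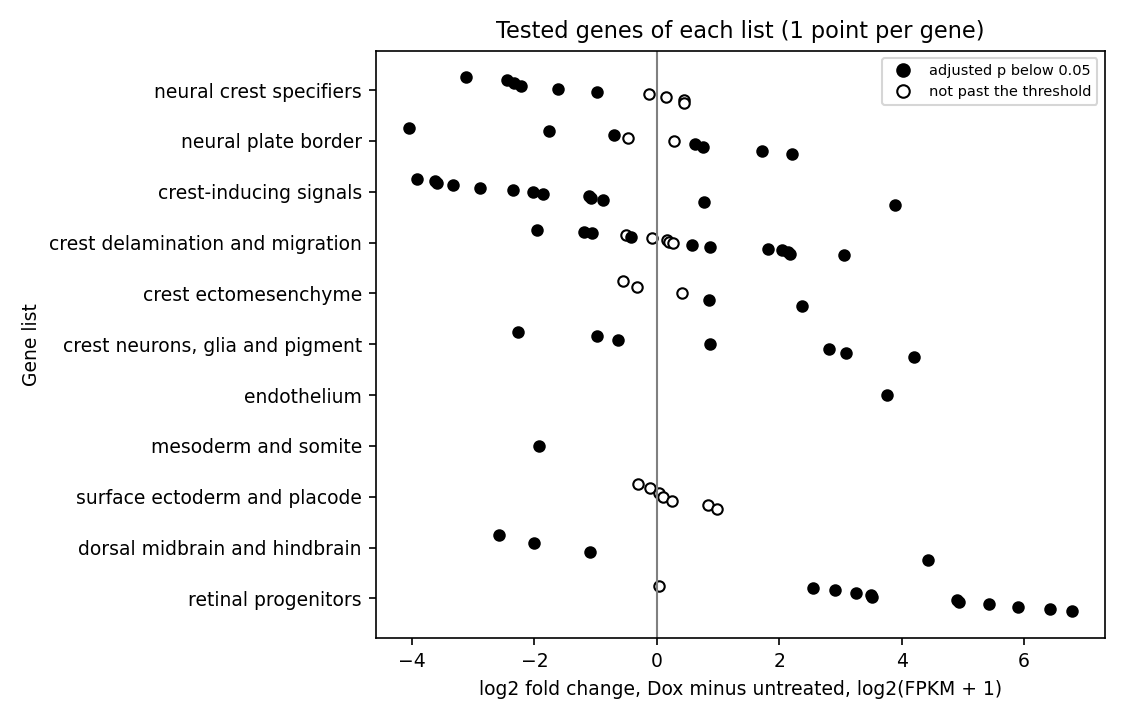
Log2 fold change on the log2(FPKM + 1) scale (x axis, Dox minus untreated) of every tested gene in each list (y axis), 1 point per gene, filled where the adjusted p was below 0.05. Crest specifiers and crest-inducing signals lie mostly to the left, with medians of -1.29 and -2.02, retinal progenitor genes to the right, and the border, migration and derivative lists on both sides.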

How the data were processed

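Poly(A) RNA of 2 untreated and 2 Dox organoid samples was sequenced in pairs of reads. The authors deposited FPKM values per gene, 1 column per library and rounded to 2 decimals. STAR, Cuffdiff and the build mm10 are named, without versions, per the submitters' processing notes. The annotation release and use of strand are not given in the sources used here.

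Groups follow the treatment label. The main test was limma 3.58.1 in R 4.3.3 (eBayes with trend) on log2(FPKM + 1), on genes averaging 1 FPKM or more, with Benjamini-Hochberg adjustment and a threshold of 0.05. Count models were not used, because FPKM are not counts. Exact permutation p-values cannot fall below 0.33 with 2 against 2. Gene positions and overlaps came from GENCODE M21 (GRCm38, the same assembly as mm10). Depth was fitted in Python 3.11.15 on single-transcript genes, of whose low values 77.3% to 79.8% came within 0.1 of a whole fragment. Fragment numbers are approximate and are given only for genes with 1 transcript. Scripts were tested on simulated data.

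The members and all gene lists were chosen with earlier results of these data known. Named are all 10 members, Mettl3, Rax, and per list each called gene where at most 5 were called, otherwise the 4 with the largest change. Listed genes under 1 FPKM may be named as such. The rule names 1 further gene, which is left out of the text and stays in all counts. Alternatives were pseudocounts of 0.1 and 5, no filter or a minimum of 5 FPKM, TPM, median centring, no trend, robust eBayes, the replicate number as a block, and each library left out. With 1 library left in a group, that library is assumed to vary like the other group.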

Additional observations from a re-analysis of the deposited data

How the results depend on the processing

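No crest specifier changed direction in any setting: of 121 values, 115 kept their direction and side of the threshold, 5 lost the call (all Ets1) and 1 gained it (Snai2 without the trend). With a minimum mean of 5 FPKM only Sox10 was tested, so 1 specifier was called, and the counts were 821 for all genes, 8 for crest-inducing signals, 1 for ectomesenchyme and 1 for dorsal midbrain and hindbrain, since fewer genes were tested. That filter left no mesoderm gene. Without a filter 745 of 27532 genes were called, 336 higher and 409 lower, against 1297 (619 and 678). Surface ectoderm and placode had 2 calls with TPM and 1 with robust estimation, against 0, and the cause was not tested. Leaving out 1 library gave 5 called specifiers each time, 593 to 697 called genes in all, 4 to 5 border genes, 1 to 2 ectomesenchyme genes and 0 to 1 surface ectoderm genes, with fewer samples in each fit.

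In the fit with a replicate block, 6 specifiers and 1134 genes were called, and 2 surface ectoderm genes. Whether the numbers pair the libraries is unknown, and the deviations of same-numbered libraries correlated at -0.043 over genes. Among the genes with 1 annotated transcript, depth limits the Dox values of Foxd3, about 30 and 5 fragments, most.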
